A study of Homo sapiens with 18 samples.

Results

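Integrins are receptors that hold cells to the extracellular matrix, and each is a pair of 1 alpha and 1 beta subunit. The alpha subunit largely sets which matrix protein is bound, and the receptor is coupled to actin inside the cell by talins and kindlins. The genes described here are 10 integrin alpha subunits, *ITGA1*, *ITGA2*, *ITGA3*, *ITGA4*, *ITGA5*, *ITGA6*, *ITGA7*, *ITGA8*, *ITGA9* and *ITGAV*, taken by symbol from the 21944 genes of the authors' expression table. They were grouped by textbook ligand. *ITGA3*, *ITGA6* and *ITGA7* bind laminins. *ITGA5*, *ITGAV* and *ITGA8* bind fibronectin and other proteins with an RGD motif, and *ITGA4* and *ITGA9* were placed with them although they bind fibronectin or related ligands outside that motif. *ITGA1* and *ITGA2* bind collagens, and can also bind laminins.

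The samples were human pancreatic progenitors at day 19 of differentiation from embryonic stem cells, detached and reseeded on fibronectin (FN) or on LN411, the laminin isoform whose alpha chain is encoded by *LAMA4*. The 6 groups were FN and LN411 at 3, 6 and 24 h, with 3 samples each and 18 in all, so that the design sets the 2 matrices against each other at each time. Per the labels the cell line is HUES4, while the growth protocol in the labels and the study's description of this experiment name NGN3-GFP, a *NEUROG3* reporter line made from the line SA121. All groups share this reporter background in the second case, and each line is a single stem cell line. The study calls the 3 samples of a group biological replicates, and whether they came from separate differentiations is not given in the labels.

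The value used for each gene is its mean normalized count, which the authors averaged over all samples of both matrices and all times after scaling each library. It carries no error and no number of replicates, and the same value stands at each time at which the gene is listed. The levels below are therefore those of the progenitors over the experiment as a whole. The effect of LN411 relative to FN, the course over time and the depth of single libraries are not given by this value, and no test was made. To compare genes, the mean was divided by the length of the gene's canonical transcript in kilobases, and this level per kilobase is the scale used unless another is named. The means of all 21944 listed genes sum to 53217583.

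The label of the cells was checked on marker genes. All 11 pancreatic progenitor markers were listed, with a median level of 1530 per kilobase. *PDX1*, the transcription factor required for pancreas formation, was at 4969 per kilobase, *SOX9*, a factor of progenitor and duct cells, at 5259, and *NKX6-1*, a factor of the trunk and beta cell lineage, at 875. The acinar and multipotent progenitor factor *PTF1A* was at 8.10 per kilobase. The endocrine markers ranged from 28.5 for *NEUROD1* to 2172 for *CHGA*, with *NEUROG3* at 289. Of the pluripotency markers *POU5F1* and *NANOG* neither was listed, and the pan-leukocyte gene *PTPRC* was not listed either, while the T cell gene *CD3E* was listed at 15.3 per kilobase with a mean of 20.8. The 3 endothelial markers were between 1.26 and 11.01 per kilobase, and the lowest, *CDH5*, was listed at 1 of the 3 times. Of 5 mesenchymal markers, *COL1A2* was at 8894 per kilobase and *COL1A1* at 692, whereas *COL3A1* and *LUM* were at 58.3 and 87.9 and *DCN* was not listed. The fetal liver gene *AFP* was at 10996 and *ALB* at 280 per kilobase. In bulk RNA, many cells with little transcript and few cells with much cannot be told apart, and the part of such cells in the integrin levels was not tested.

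All 10 alpha subunit genes were listed at all 3 times. Their levels spanned 1.39 to 2679 per kilobase, a ratio of 1923 between *ITGA6* and *ITGA8*. *ITGA6*, *ITGAV* and *ITGA5* together held 85.7% of the summed level of the 10 genes, and the 5 highest genes held 96.6%. Against the 21861 genes with a transcript length, whose median was 115 per kilobase, 6 members lay above the median and 3 in the top 10%. These counts depend on how many low genes are kept: they were 5 and 2 among genes with a mean of at least 10, and 4 and 1 among genes with a mean of at least 100. The 3 leading genes were a laminin receptor subunit and a pair of fibronectin/RGD receptor subunits, and the other 7 genes were at 576 per kilobase or lower.

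**Figure D1:**
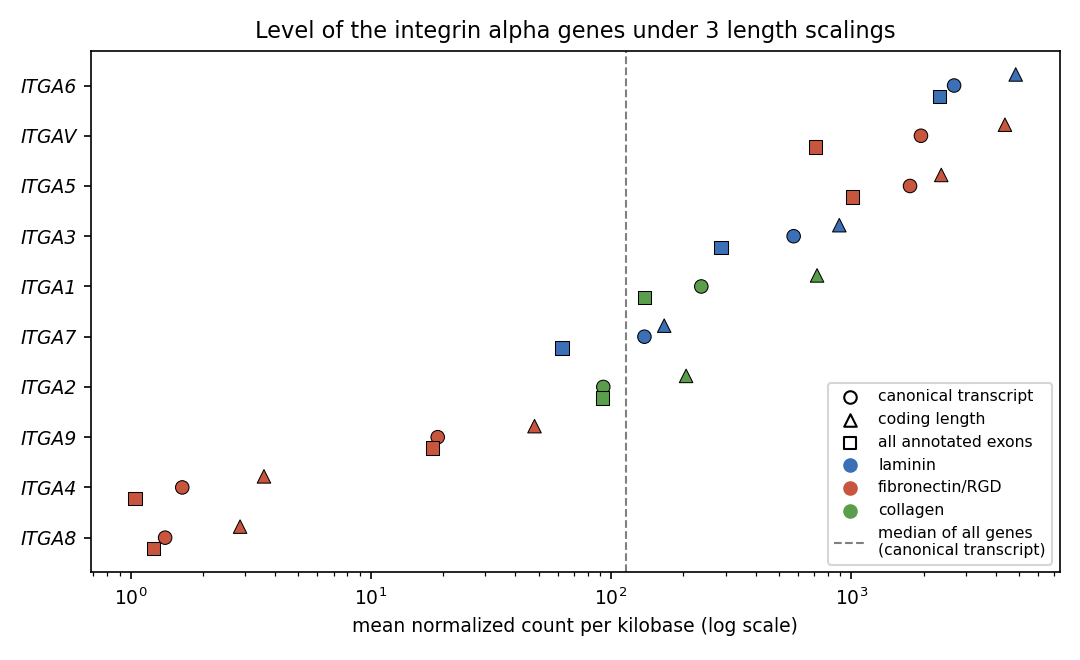
Level of the 10 integrin alpha genes as the authors' mean normalized count per kilobase (horizontal, log scale), with 1 row per gene. Circles use the canonical transcript, triangles the coding length and squares all annotated exons, colours give the ligand group, and the dashed line is the median of all genes at 115 per kilobase. *ITGA6* is highest under each of the 3 lengths, and *ITGA4* and *ITGA8* lie at the bottom.

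Among the laminin receptors, *ITGA6* (ENSG00000091409, GRCh38 chr2:172427354-172506459, plus strand) was the highest. Its product pairs with the product of *ITGB1*, or with that of *ITGB4* in hemidesmosomes of epithelia. Its mean normalized count was 15584, or 2679 per kilobase over a canonical transcript of 5816 bases, and 94.1% of listed genes lay lower. It made up 79.0% of the level of the laminin group and 36.0% of that of all 10 genes. *ITGA3* (ENSG00000005884, chr17:50055968-50090481, plus strand), whose product with *ITGB1* binds laminins of epithelial basement membranes, had a mean of 2814, or 576 per kilobase. *ITGA6* was thus at 4.65 times the level of *ITGA3*, and at 8.13 times with all annotated exons as the length. *ITGA7* (ENSG00000135424, chr12:55684568-55716404, minus strand), best known as the laminin receptor of muscle, had a mean of 568 and a level of 138 per kilobase, with 52.3% of listed genes lower, but 21.4% of those with a mean of at least 100. *ITGA3* held 17.0% and *ITGA7* 4.06% of the level of the group.

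The fibronectin/RGD group held both high and very low genes. *ITGAV* (ENSG00000138448, chr2:186590010-186680901, plus strand), which encodes the alpha subunit of the vitronectin receptors and pairs with several beta subunits, had a mean of 13729 and a level of 1950 per kilobase. *ITGA5* (ENSG00000161638, chr12:54395261-54419266, minus strand), whose product with *ITGB1* is the classical fibronectin receptor, had a mean of 7464 and a level of 1756 per kilobase. These genes made up 52.3% and 47.1% of the level of the group. *ITGAV* was at 1.11 times the level of *ITGA5* on this scale and at 1.84 times with the coding length, but at 0.702 times with all annotated exons as the length. That length is 19336 bases for *ITGAV*, against 7039 for its canonical transcript.

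The other 3 genes of this group were far lower. *ITGA9* (ENSG00000144668, chr3:37452115-37823507, plus strand), a receptor subunit for tenascin-C, had a mean of 149 and a level of 19.0 per kilobase, with 25.9% of listed genes lower, but 0.885% of those with a mean of at least 100. *ITGA4* (ENSG00000115232, chr2:181457202-181538940, plus strand), known from leukocytes and as a receptor of VCAM1, had a mean of 11.1 and a level of 1.64 per kilobase. *ITGA8* (ENSG00000077943, chr10:15513954-15719922, minus strand), which pairs with *ITGB1* and binds nephronectin in the kidney, had a mean of 9.12 and a level of 1.39 per kilobase. Only 1.28% of listed genes had a level below that of *ITGA4*, and 0.810% below that of *ITGA8*. Among genes with a mean of at least 10, 0.234% lay below *ITGA4*, and *ITGA8* was left out. By their means before scaling for length *ITGA4* and *ITGA8* were less extreme, since 5% of listed genes had a mean below 6.68. *ITGAV*, with the same motif preference as *ITGA8*, was at 1400 times its level, and at 570 times with all annotated exons as the length.

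The collagen receptor subunits lay in the middle of the order. *ITGA1* (ENSG00000213949, chr5:52787916-52959209, plus strand) had a mean of 2551 and a level of 238 per kilobase, and *ITGA2* (ENSG00000164171, chr5:52989340-53094779, plus strand) a mean of 728 and a level of 92.9 per kilobase. Both encode subunits with a collagen-binding inserted domain and pair with *ITGB1* only. *ITGA1* was at 2.56 times the level of *ITGA2*, at 3.51 times with the coding length and at 1.49 times with all annotated exons. Its canonical transcript of 10736 bases is the longest of the 10, so that its unscaled mean was close to that of *ITGA3*.

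The order of the genes by level was *ITGA6*, *ITGAV*, *ITGA5*, *ITGA3*, *ITGA1*, *ITGA7*, *ITGA2*, *ITGA9*, *ITGA4* and *ITGA8*. Since no spread is known, neighbours were compared only by the size of their ratio. The ratios were smallest for *ITGAV* over *ITGA5* at 1.11, for *ITGA4* over *ITGA8* at 1.18, for *ITGA6* over *ITGAV* at 1.37, which was 1.11 with the coding length and 3.29 with all annotated exons, and for *ITGA7* over *ITGA2* at 1.48. With the coding length, *ITGA2* came before *ITGA7* and the other 8 genes kept their places. With all annotated exons, 4 genes kept their places, *ITGA6*, *ITGA3*, *ITGA1* and *ITGA9*, and each of the other 6 exchanged places with a neighbour. The largest steps in the order were 11.6 between *ITGA9* and *ITGA4*, 4.89 between *ITGA2* and *ITGA9* and 3.05 between *ITGA5* and *ITGA3*.

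Summed over the groups, the laminin receptors had a level of 3393 per kilobase, the fibronectin/RGD receptors 3729 and the collagen receptors 330. The shares of the total were 45.5%, 50.04% and 4.43%. The laminin and fibronectin/RGD shares were thus of like size, and their order turned with all annotated exons as the length, at 57.6% and 37.4%. The collagen share was between 4.43% and 7.52% under each length, and lay well under the other 2 in every case. Counting *ITGA1* and *ITGA2* as laminin receptors brought the laminin share to 49.96%, against 50.04% for the fibronectin/RGD group. Leaving out *ITGA4* and *ITGA9* changed each share by less than a percentage point, since both were low.

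**Figure D2:**
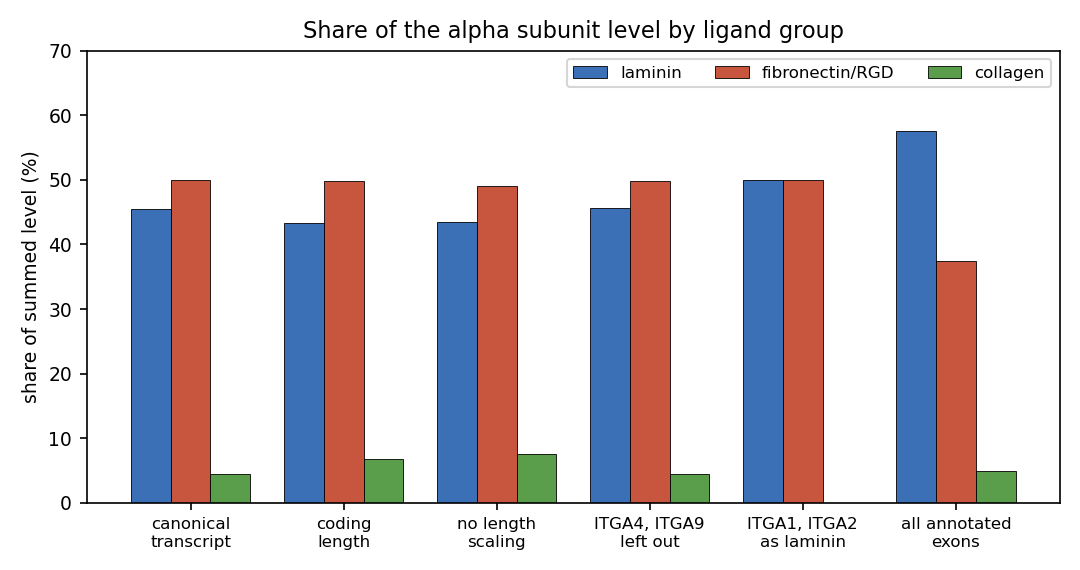
Share of the summed level of the 10 alpha subunit genes (vertical, percent) held by the laminin, fibronectin/RGD and collagen groups under 6 settings of length or grouping. The collagen bars are at 7.52% or lower, and the laminin bar exceeds the fibronectin/RGD bar only with all annotated exons.

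The remaining alpha subunits of the family were lower than the leading members. All 8 were listed, with a median of 11.8 per kilobase. *ITGAE*, the alpha subunit that binds E-cadherin in lymphocytes of epithelia, was highest at 291 per kilobase, between *ITGA3* and *ITGA1*. The collagen receptor subunits *ITGA10* and *ITGA11* were at 16.9 and 12.6, and the platelet subunit *ITGA2B* was at 20.5. The leukocyte subunits *ITGAL*, *ITGAM*, *ITGAX* and *ITGAD* lay between 1.59 and 10.95 per kilobase, and *ITGAX* and *ITGAD* were listed at 2 and 1 of the 3 times.

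An alpha subunit reaches the cell surface only with a beta partner. *ITGB1*, whose product can pair with each of the 10 members, had a mean normalized count of 43550 and a level of 11660 per kilobase, and 98.9% of listed genes lay lower. The 10 alpha genes summed to 0.639 times the level of *ITGB1*, to 0.749 times with the coding length and to 1.56 times with all annotated exons. The 8 beta genes together summed to 14829.5 per kilobase, and the 10 alpha genes to 7452, or 0.503 times as much. This ratio was 0.546 with the coding length and 0.904 with all annotated exons, below 1 under each of the 3 lengths. *ITGB5*, a partner of *ITGAV* for vitronectin, was at 2410 per kilobase, and *ITGAV* was at 0.809 times this level, or 0.978 times with the coding length and 0.432 times with all annotated exons. The other partners of *ITGAV* were *ITGB8* at 497, *ITGB6* at 94.6 and *ITGB3* at 1.33 per kilobase. *ITGB4*, which pairs with *ITGA6* alone, was at 159 per kilobase, and *ITGA6* was at 16.8 times this level, or 28.2 times with the coding length. *ITGB2* and *ITGB7*, the beta subunits of leukocytes and the latter a partner of *ITGA4*, were at 5.42 and 2.08 per kilobase. The values of *ITGB7* and *ITGB3* are uncertain, since 42.3% of the exonic bases of *ITGB7* and 33.2% of those of *ITGB3* also lie in exons of other genes. The same holds to a lesser degree for *ITGB6*, at 16.7%. In addition, *ITGB3* was listed at 2 and *ITGB7* at 1 of the 3 times.

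Of the 6 linker genes looked up, which act at the inner tail of the beta subunit, *TLN1*, encoding talin 1, was highest at 3358 per kilobase against 368 for *TLN2*. Among the kindlins, *FERMT2* was at 1469, *FERMT3*, the kindlin of blood cells, at 36.1, and *FERMT1*, the kindlin of surface epithelia, at 23.3 per kilobase. *ILK*, which encodes the integrin-linked pseudokinase, was listed at only 18.5 per kilobase. Of its annotated exonic bases, 78.5% lie in exons of genes on the opposite strand, mainly *TAF10*, and reads in such bases cannot be assigned by strand with the library kit used. Its value was therefore not read as a level.

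The cells also expressed genes of the ligands themselves. *FN1*, which encodes fibronectin, was at 85398 per kilobase with a mean of 716487, and 99.9% of listed genes lay lower. *VTN*, encoding vitronectin, a ligand of *ITGAV*, was at 14948, with 17.3% of its exonic bases shared with another gene on its strand. Among the laminin alpha chains, *LAMA1* was at 18398, with 11.1% of its exonic bases shared with the opposite strand, and *LAMA5* at 1588. *LAMA3* was at 51.0, *LAMA2* at 33.7 and *LAMA4*, the alpha chain of LN411, at 2.91 per kilobase. The alpha chain of the laminin offered as substrate was thus the lowest of the 5 in the cells' own RNA. Of the collagen genes, *COL4A1* of basement membranes was at 4214 and *COL1A1* at 692. *NPNT*, the nephronectin gene, was at 259, and *TNC*, the tenascin-C gene, at 17.7, while their receptor subunits *ITGA8* and *ITGA9* were at 1.39 and 19.0.

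**Figure D3:**
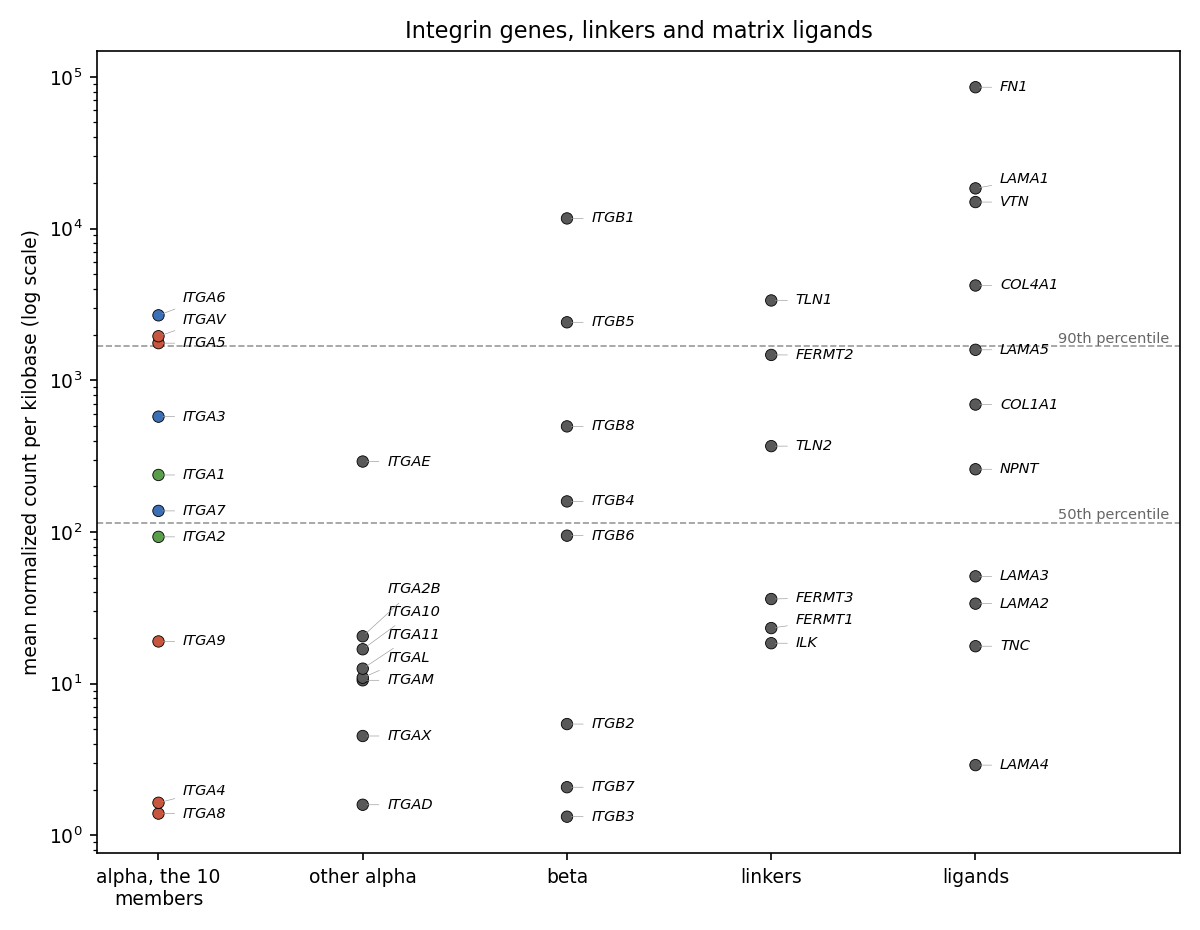
Level of the 10 alpha subunit genes, the other alpha and beta subunits, the linkers and the matrix ligands as the authors' mean normalized count per kilobase (vertical, log scale), 1 point per gene. Blue, red and green points are the laminin, fibronectin/RGD and collagen receptor subunits, and dashed lines mark the median and the 90th percentile of all genes. *FN1* at 85398 is the highest point and *ITGB3* at 1.33 the lowest.

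The 10 genes are alike in build. Their canonical transcripts have 25 to 30 exons and coding sequences of 1032 to 1181 codons, while the genes span 24.0 kb for *ITGA5* to 371 kb for *ITGA9*. The collagen receptor genes *ITGA2* and *ITGA1*, with 1181 and 1179 codons, are the longest in coding sequence. They lie next to each other on chromosome 5, on the same strand, 30130 bases apart with 0 protein-coding genes wholly between them, and their levels differed by the 1.49 to 3.51 times given above. *ITGA6*, *ITGA4* and *ITGAV* share the long arm of chromosome 2, with 8.95 Mb between the former pair and 5.05 Mb between the latter, and *ITGA4*, between the 2 highest members, is among the lowest. *ITGA5* and *ITGA7* are 1.27 Mb apart on chromosome 12.

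Sequence shared between genes can leave the origin of a read unclear. How the authors' counting treated such reads was not tested. Of all windows of 50 bases in the 10 canonical transcripts, 0 were shared between members. Shared windows with other genes made up 4.22% of *ITGA1*, of which 450 of 451 were shared with *PELO*, a gene within the *ITGA1* locus on the same strand that had a mean of 1973. They made up at most 0.139% of each of the other 9. Coding sequences of the 45 pairs were 51.5% to 59.8% identical over aligned bases. The most alike were *ITGA8* and *ITGAV* at 59.8%, followed by *ITGA3* and *ITGA7* at 59.4% and *ITGA6* and *ITGA7* at 58.6%. Next came pairs across groups, *ITGA2* and *ITGAV* at 58.1%, *ITGA1* and *ITGA4* at 57.9% and *ITGA5* and *ITGA7* at 57.4%. The 14 pairs within a group had a median of 56.6% and a range of 51.5% to 59.8%. For the 31 pairs across groups these were 54.8% and 51.7% to 58.1%. The identity of unrelated sequences under this alignment was not measured, so these values cannot show whether sequence follows ligand group. The least alike pair, *ITGA4* and *ITGA5*, was within the fibronectin/RGD group.

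Exons of 7 of the 10 genes overlap exons of other annotated genes. For *ITGA4* the overlap was 26.4% of its annotated exonic bases, all with *CERKL* on the opposite strand, whose mean of 22.2 was above the 11.1 of *ITGA4*. For *ITGA9* it was 9.23%, with the antisense RNA *ITGA9-AS1*, whose mean of 206 was above the 149 of *ITGA9*. For *ITGA1* it was 13.2%, and for *ITGA6*, *ITGA7*, *ITGA5* and *ITGAV* between 0.650% and 5.26%. The library kit named by the study, NEBNext Ultra II RNA with the catalogue number of its non-directional form, does not mark the strand, so that in shared bases a gene and its antisense partner cannot be told apart. The values of *ITGA4* and *ITGA9* are uncertain for this reason, and whether the overlap makes them too low or too high was not tested. The value of *ITGA1* is uncertain as well, with 5.77% of its exonic bases shared on its own strand and 8.06% on the opposite strand. The former include bases of *PELO*, whose mean was 1973.

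Promoters of 7 members were taken from a table of RefSeq promoters (GRCh38.p14), with 9 start sites in all, and each stretch was identical to the genome sequence at its position. Those of *ITGA3*, *ITGA7* and *ITGA9* were not used here. Over the 250 bases before the start, 7 of the 9 had a GC content above the median of 58.0% over 35114 RefSeq promoters. The GC box letters GGGCGG, on either strand, were found in 4 of the 9 against 42.6% of all promoters, and the TATA box letters TATAAA, on either strand, in 1 against 10.7%. The last 100 bases before the start are shown for *ITGA6* and *ITGA5*, which were high, and for *ITGA8*, the lowest, all in the direction of transcription with matches to either motif in capitals. They cover chr2:172427236-172427335 on the plus strand, chr12:54419267-54419366 on the minus strand and chr10:15719923-15720022 on the minus strand.
ITGA6: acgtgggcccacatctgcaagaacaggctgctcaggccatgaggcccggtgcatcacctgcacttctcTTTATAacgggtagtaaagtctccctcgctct
ITGA5: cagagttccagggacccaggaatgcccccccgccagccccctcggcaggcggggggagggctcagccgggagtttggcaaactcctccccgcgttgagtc
ITGA8: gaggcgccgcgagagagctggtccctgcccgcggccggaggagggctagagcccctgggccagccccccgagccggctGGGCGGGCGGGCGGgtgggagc
The *ITGA6* stretch belongs to the first of its 2 listed starts, with a GC content of 50.8% and the one TATAAA match, read on the opposite strand. The second start had 71.6% GC and 3 GGGCGG matches. *ITGA8*, at the bottom of the order, had 4 such matches, not all of them within the stretch shown. *ITGA5* had 1, which lies outside its stretch, so that the motif was present both in a high and in the lowest gene. *ITGA1*, *ITGA4* and both *ITGAV* starts held neither motif in this window.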

How the data were processed

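Polyadenylated RNA of 18 samples was sequenced, and per the study's methods reads were aligned with STAR 2.7.2d to GRCh38.p13, counted per gene with GENCODE v32 and normalized with DESeq2 1.34.0. The authors deposited 1 table of 21944 genes. The value used from it is a signal, the gene's normalized count averaged by the authors across the libraries of both matrices and all times. It is repeated at each time at which the gene is listed. Its 5 other value columns hold the authors' own comparisons of LN411 with FN (fold change, error, statistic and p-values) and were not used. Values of single samples were not analysed here, so the planned count test gave way to a description.

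Positions and lengths were taken from GENCODE v44 (GRCh38) by Ensembl identifier, with lengths for 99.6% of genes. Levels are means per kilobase of the Ensembl canonical transcript. Named genes are the 10 members, the other integrin genes, linkers, ligands and cell type markers. Members and lists were chosen with earlier results of these data known. Coding sequences were aligned globally (match 1, mismatch -1, gap opening -5, extension -0.5) with biopython 1.88. Scripts ran in Python 3.11.15 with pandas 2.3.3, numpy 2.4.6 and matplotlib 3.10.9. Alternatives were the coding length, no scaling, other groupings and filters on the mean, and merged exons, chosen after seeing the data.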

Additional observations from a re-analysis of the deposited data

How the results depend on the processing

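No paired analysis was possible because the mean used here carries no single samples. Count models, other normalizations and leaving out replicates were not run for the same reason. The shares of the laminin, fibronectin/RGD and collagen groups, with no spread to set them against, were 45.5%, 50.04% and 4.43%. They were 43.3%, 49.9% and 6.80% with the coding length, and 43.5%, 49.0% and 7.52% with no length scaling. Without *ITGA4* and *ITGA9* they were 45.7%, 49.9% and 4.45%. With *ITGA1* and *ITGA2* counted as laminin receptors they were 49.96%, 50.04% and 0%. With all annotated exons, a setting chosen after seeing the data, they were 57.6%, 37.4% and 4.94%. This was the one setting of these that turned the order of the first 2 groups. There the annotated exonic length of *ITGAV* grew from 7039 to 19336 bases. Among genes with a mean of at least 10 and 100, the percentile fell from 94.1 to 93.3 and 90.1 for *ITGA6*, from 91.6 to 90.4 and 85.9 for *ITGAV*, from 90.4 to 89.1 and 84.0 for *ITGA5*, from 74.2 to 70.7 and 57.0 for *ITGA3*, from 59.6 to 54.2 and 32.9 for *ITGA1*, from 52.3 to 45.8 and 21.4 for *ITGA7*, from 47.4 to 40.4 and 14.7 for *ITGA2*, and from 25.9 to 17.3 and 0.885 for *ITGA9*, as these filters leave out low genes. The depth of single libraries is unknown, so that no interval can be given for the low levels of *ITGA4* and *ITGA8*.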
